A study of Mus musculus with 16 samples.

Results

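Open chromatin of the mouse lung was compared between the fed and the fasting state, through the regions that were listed in 1 state and not in the other. A region is a stretch of DNA called as an ATAC-seq peak, and regions with a q-value under 0.01 form the set of a library. A fed-only region is a region of the fed set that no fasting lung peak overlapped by 1 bp, and a fasting-only region is the reverse. Of 317859 lung regions, 160424 in the fed and 157435 in the fasting set, 78851 were condition-only in this sense. These comprised 42008 fed-only regions, 26.2% of the fed set, and 36843 fasting-only regions, 23.4% of the fasting set. The sets of all tissues of the study together held 2640607 regions.

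The study profiled liver, muscle, brown and white adipose tissue, spleen, heart, lung and kidney of male C57BL/6 mice by ATAC-seq, a method that cuts and tags accessible DNA with the Tn5 transposase. Both groups used here were lung of male C57BL/6 mice, labelled Fed or Fasting, and fasting meant withholding food. Nuclei came from frozen lung pooled over the mice of a group, and each state had 1 library, so no spread between animals can be given and no difference was tested. Spleen, an organ rich in lymphocytes and myeloid cells, served as a second tissue, with libraries made from the same mice.

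The lung exchanges gas across a thin wall of flat alveolar type 1 cells and capillary endothelium, and cuboidal alveolar type 2 cells make the surfactant that keeps alveoli open. It also holds many leukocytes, in its capillaries and in its tissue. An open promoter or enhancer in bulk tissue reflects both how many cells of a type are present and how open the DNA is in each of them, and these cannot be told apart here. Food withdrawal is known to raise circulating glucocorticoid, which acts through the glucocorticoid receptor, to activate FOXO factors and PPAR targets, and to change the traffic of lymphocytes between organs.

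Sequences of 8 regions are printed as examples from the extremes of each class. They are 200 bp windows of GRCm38, centred on the summit or, for the promoters of Ptcra and Cd3e, ending at the base before the start, written 5′ to 3′, with capitals marking matches to the short motifs defined further down. Msra (chr14:64323629-64323828, plus strand) was the highest-ranked fed-only region and was also open in spleen. Capn3 (chr2:120455088-120455287, plus strand), in an intron of the neighbouring gene Ganc, was the highest-ranked fed-only region without a spleen peak. Mboat2 (chr12:24889572-24889771, plus strand) and Xpnpep1 (chr19:53022374-53022573, plus strand) were the highest-ranked fasting-only regions with and without a spleen peak. Cav2 (chr6:17252009-17252208, plus strand) and Ext1 (chr15:53115529-53115728, plus strand) were open in both states with large differences of rank. Ptcra (chr17:46763713-46763912, minus strand) and Cd3e (chr9:45009623-45009822, minus strand) are promoters of T cell genes that were listed in the fed lung alone.
Msra: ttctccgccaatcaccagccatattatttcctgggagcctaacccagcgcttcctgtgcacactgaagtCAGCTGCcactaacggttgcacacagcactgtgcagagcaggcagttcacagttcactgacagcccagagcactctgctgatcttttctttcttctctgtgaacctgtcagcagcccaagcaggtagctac
Capn3: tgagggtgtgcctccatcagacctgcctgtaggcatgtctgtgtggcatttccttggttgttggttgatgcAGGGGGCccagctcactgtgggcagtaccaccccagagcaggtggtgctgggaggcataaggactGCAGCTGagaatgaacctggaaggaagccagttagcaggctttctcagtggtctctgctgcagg
Mboat2: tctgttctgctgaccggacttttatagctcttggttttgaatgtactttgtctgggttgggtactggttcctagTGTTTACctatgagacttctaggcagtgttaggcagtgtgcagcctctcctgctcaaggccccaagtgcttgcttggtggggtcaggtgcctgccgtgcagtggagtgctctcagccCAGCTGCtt
Xpnpep1: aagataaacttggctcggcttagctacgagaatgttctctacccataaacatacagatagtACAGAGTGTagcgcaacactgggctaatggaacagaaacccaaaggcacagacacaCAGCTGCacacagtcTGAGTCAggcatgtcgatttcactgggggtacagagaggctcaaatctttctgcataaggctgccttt
Cav2: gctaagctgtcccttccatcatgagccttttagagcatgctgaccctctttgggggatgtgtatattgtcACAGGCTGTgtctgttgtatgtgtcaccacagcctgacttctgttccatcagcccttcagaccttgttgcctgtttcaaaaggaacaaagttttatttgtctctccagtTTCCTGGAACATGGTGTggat
Ext1: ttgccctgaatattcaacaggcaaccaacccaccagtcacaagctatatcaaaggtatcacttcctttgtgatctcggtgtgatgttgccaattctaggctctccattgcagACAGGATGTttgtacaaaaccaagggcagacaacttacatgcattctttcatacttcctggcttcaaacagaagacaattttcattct
Ptcra: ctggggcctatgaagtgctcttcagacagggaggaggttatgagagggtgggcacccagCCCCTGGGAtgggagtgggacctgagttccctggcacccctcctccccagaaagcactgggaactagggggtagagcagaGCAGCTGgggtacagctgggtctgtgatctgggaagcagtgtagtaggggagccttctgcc
Cd3e: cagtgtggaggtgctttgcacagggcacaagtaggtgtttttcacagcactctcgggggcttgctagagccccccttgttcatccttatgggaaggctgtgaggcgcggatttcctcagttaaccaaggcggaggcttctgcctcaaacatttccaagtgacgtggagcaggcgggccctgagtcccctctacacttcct

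Strength is given in 2 ways. The rank is the percentile of a region by its p within its own list, running up to 100 at the strongest region and set to 0 where a peak was missing. Tags over background are the reads at the summit divided by the genome background of the same library, which is proportional to depth. The background was 8.92 tags in the fed and 7.14 tags in the fasting library, so the fasting lung was sequenced to 0.80 of the fed depth. Every deposited row had a q-value under 0.01, and the lists therefore ended at their fixed length. The lowest summit had 24 tags in the fed and 21 tags in the fasting list. The limit lay in p and not in tags, so a missing region may have had more tags than that. A fed region near Top3b, for example, had 50 tags at a rank of 1.88. A region missing from a list was below that list's limit, not shown to be closed. The base pairs shared by the 2 sets made up 0.639 of their union, against 0.444 in spleen.

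The label of the tissue was examined in the promoters of lung cell markers. Ager, the receptor that marks alveolar type 1 cells, had a promoter rank of 77.2 in the fed and 86.9 in the fasting lung, and no spleen peak was listed there in either state. Sftpc, the surfactant protein C gene of alveolar type 2 cells, had ranks of 85.5 and 83.9. Its promoter region also had ranks of 88.7 and 88.7 in fed and fasting spleen, so it did not set lung apart. All 12 type 2 markers and all 10 type 1 markers had a promoter region in both lung lists. In airway cells, Krt5, Trp63 and Dnah5, markers of basal and ciliated cells, had no promoter region in either list.

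Fed-only and fasting-only regions were mostly weak. The median rank was 22.1 in fed-only and 20.3 in fasting-only regions, against 62.1 and 61.4 in the regions of the fed and fasting sets that the other state shared. The highest rank reached was 90.5 and 89.5. Above the middle of the list the classes separated, with 4665 fed-only regions but 2276 fasting-only regions at a rank of 50 or more. Both classes were narrow, at a median width of 143 bp and 129 bp, and most of them lay in introns, 59.2% of fed-only and 61.4% of fasting-only regions. Promoter regions, with the summit within 3000 bp of an annotated start, made up 27.0% of fed-only (95% exact binomial interval 26.6% to 27.4%) and 25.8% of fasting-only regions (25.3% to 26.2%). In the regions shared by both states they made up 36.9% of the fed and 37.3% of the fasting set. These intervals, like all intervals given here, cover counting error only. When the tags were thinned to equal depth, the order of the numbers turned, with 31438 fed-only and 40961 fasting-only regions. This thinning could only remove regions and called none anew, and it left 141131 fed and 153598 fasting regions. As it took more from the fed set, it works by itself toward fewer fed-only and more fasting-only regions.

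The classes differed in how much of them was open in spleen. A spleen peak of either state overlapped 20231 fed-only regions, or 48.2% (interval 47.7% to 48.6%), but 8456 fasting-only regions, or 23.0% (22.5% to 23.4%). In the shared regions the share was 61.0% of the fed and 61.8% of the fasting set. Regions without a spleen peak were fewer among fed-only regions, 21777, than among fasting-only regions, 28387, which is the opposite of the order of all condition-only regions. The difference in spleen overlap was also present at equal depth, with 51.9% and 24.6%, and among regions with a q-value under 1e-06, with 64.4% and 22.4%.

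The spleen share went up with rank in fed-only regions and in the regions shared by both states, but hardly in fasting-only regions. From the weakest to the strongest of 5 rank bands, a spleen peak overlapped 37.6%, 47.8%, 67.1%, 86.4% and 93.2% of the fed-only regions. The same bands of the fasting-only regions gave 22.9%, 23.3%, 22.2%, 22.9% and 33.3%, the last from 6 regions only. In the shared regions the share went from 31.5% in the weakest to 92.1% in the strongest band of the fed set and from 47.7% to 85.4% in the fasting set. Among fed-only regions of rank 60 to 80, 1730 of 2002 were open in spleen, and among fasting-only regions of that rank 118 of 516.

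**Figure D1:**
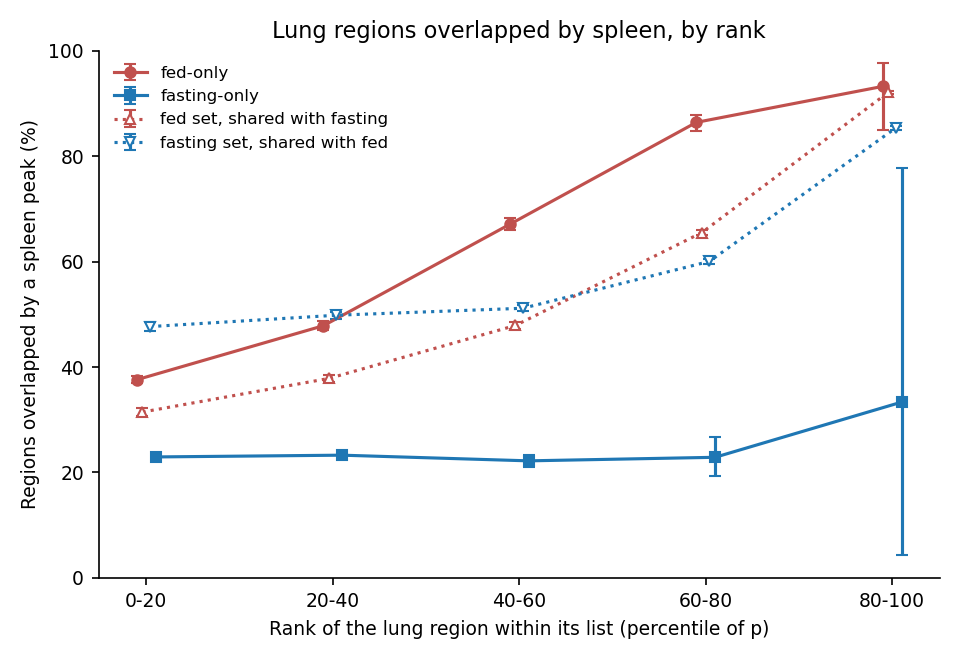
Share of lung regions overlapped by a spleen peak (%, vertical axis) in 5 bands of their rank within the lung list (percentile of p, horizontal axis). Filled points are fed-only and fasting-only regions, open points the regions shared by both states, and bars are 95% exact binomial intervals. Fed-only regions climb from 37.6% to 93.2% and shared regions of the fed set from 31.5% to 92.1%, while fasting-only regions stay between 22.2% and 23.3% up to a rank of 80.

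Both spleen lists held a peak at 12164 fed-only lung regions, 29.0% of them, and at 2743 fasting-only lung regions, 7.45%. The fed spleen list alone held one at 4162 fed-only and 2727 fasting-only regions, and the fasting spleen list alone at 3905 and 2986. A spleen fed-only region overlapped 8.85% of the fed-only lung regions and a spleen fasting-only region 9.22%. Among fasting-only lung regions these shares were 6.03% and 7.83%. The fed-only regions with a spleen peak had a median spleen rank of 71.0, and the fasting-only regions with one had 50.8.

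No other tissue separated the classes in this way. Peaks of liver, muscle, brown adipose, white adipose, heart and kidney overlapped between 21.6% and 29.2% of fed-only regions. For heart the shares were 29.0% of fed-only and 28.9% of fasting-only regions, and for brown adipose, where they differed most, 23.5% and 26.6%. The ratio of the fed-only to the fasting-only share was 0.883 in brown adipose, against 2.10 in spleen. Regions overlapped by spleen and by no other tissue made up 16.2% of fed-only and 4.96% of fasting-only regions, a ratio of 3.26. For regions overlapped by 1 of the other tissues alone, this ratio lay between 0.541 in kidney and 0.721 in muscle. By that measure the fasting-only regions had the higher share in each of these tissues. Regions seen in no other tissue were 20.8% of fed-only and 29.9% of fasting-only regions.

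The strongest single regions showed the same division. The Msra region, in an intron of the methionine sulfoxide reductase gene, had 124 tags at its summit in the fed lung (13.9 times background, rank 90.5) and no fasting peak, and its spleen ranks were 95.4 and 94.2. Kcnh8, a potassium channel gene, was the nearest gene of an intergenic fed-only region of rank 90.4 with spleen ranks of 90.8 and 88.9. Next came a region in an exon of Psd3, at rank 86.8, and a region of rank 86.4 whose nearest protein-coding start, that of Lrrc3b, was 330998 bp away. All 4 had spleen peaks in both states. The highest fed-only regions without a spleen peak were weaker, with ranks of 84.9 near Capn3, the muscle calpain gene, 84.0 in an intergenic stretch 320268 bp from the homeobox gene Hlx, 80.7 near 9330182O14Rik and 80.3 near Rgsl1.

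The 2 strongest fasting-only regions lacked a spleen peak. The Xpnpep1 region, 2178 bp from a start of this aminopeptidase gene, had 166 tags (23.2 times background, rank 89.5). Fam53a was nearest to an intergenic region of rank 88.6 with 91 tags. Introns of Mcf2l, a guanine nucleotide exchange factor gene, and of Lamc3, a laminin chain gene, held regions of rank 82.7 and 80.6. The strongest with a spleen peak had their nearest protein-coding start at Mboat2, an enzyme gene of phospholipid remodelling, with rank 84.6, at Armc2 with 81.7, at Cog6, 247530 bp away, with 78.8, and at Vps8 with 77.2. The Mboat2 region had a spleen rank of 73.5, in the fasting spleen alone, while the Cog6 and Vps8 regions ranked at 5.40 in the fed spleen.

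Merging the 2 sets gave 190813 regions, of which 111962, or 58.7%, were in both. Their ranks correlated at a Pearson r of 0.780 across regions, which are not independent replicates. The rank was at least 20 points higher in the fasting lung in 11727 regions, 10.5% of those in both, and at least 20 points lower in 12326 regions, 11% of them. Spleen overlap divided these regions as well. Of 70743 regions with a spleen peak, 3796 had a higher and 8897 a lower rank in fasting, with a median difference of -0.83 points. Of 41219 regions without one, 7931 had a higher and 3429 a lower rank, with a median difference of 5.42 points. Ranks are relative within a list, so a lower rank of many regions raises the others. Tags over background are not ranks, but they are scaled to the depth of a library, so they too are relative to its other reads. In this measure 1195 regions were lower in fasting by a factor of at least 2, and 1176 of these had a spleen peak. The same size of difference in the other direction was found in 1068 regions, of which 737 had no spleen peak.

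**Figure D2:**
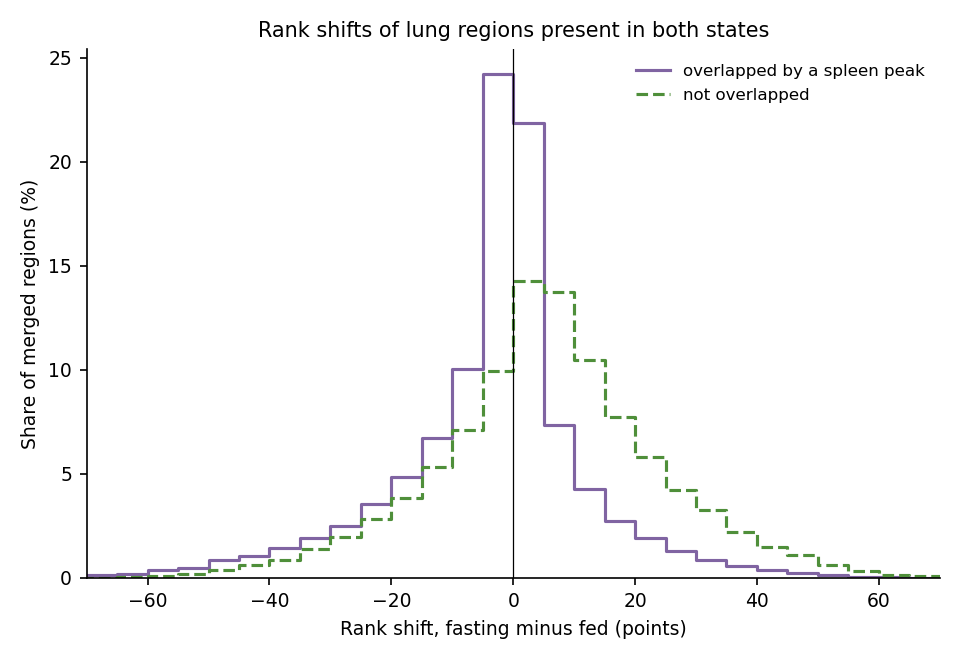
Distribution of the rank difference (fasting minus fed, in points, horizontal axis) of the merged lung regions in both sets, as a share of the regions per 5-point bin (%, vertical axis). The solid line is for regions overlapped by a spleen peak (median -0.83) and the dashed line for the others (median 5.42), which lie further to the right.

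The 5 largest rises of rank lay near Mib1 (from 6.24 to 88.7), Top3b (from 1.88 to 79.4), Rph3al (from 0.56 to 77.7), Cav2 (from 6.24 to 82.5) and Col4a1 (from 8.64 to 84.2). The region nearest to Top3b lay in an intron of the gene Vpreb1. The Col4a1 region, in an intron of this gene of the basement membrane collagen, went from 50 tags (5.61 times background) to 131 tags (18.3 times). The Cav2 region lies 29076 bp from a start of this caveolin gene, whose product is abundant in alveolar type 1 cells and endothelium, and went from 25 to 72 tags. Of the 5, the Mib1 region alone had a spleen peak, at rank 5.40 in fed spleen.

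The 5 largest falls of rank lay near Lrig2 (from 80.8 to 0.39), Nr5a2 (from 86.4 to 6.24, at a distance of 370398 bp), Ext1 (from 79.6 to 1.01), Cacna2d4 (from 79.3 to 2.37) and Ldlrad4 (from 77.6 to 0.84). All 5 had spleen peaks in both states, though not all were strong there. The spleen rank of the Lrig2 region was 81.5 in the fed and 4.39 in the fasting state. For the Nr5a2 region the spleen ranks were 40.5 and 30.2, and for Ldlrad4 89.2 and 78.9. The Ext1 region, in an intron of a heparan sulfate polymerase gene, went from 87 tags (9.75 times background) to 24 tags (3.36 times), with spleen ranks of 86.0 and 84.5. The Cacna2d4 region, in an intron of a calcium channel subunit gene, went from 98 to 32 tags, with spleen ranks of 88.4 and 86.3.

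Regions were then assigned to the nearest start of a protein-coding gene. Of 17721 genes with a region, 6553 had more fed-only and 5406 had more fasting-only regions. The largest excess of fed-only regions was at Olfr1507, with 57 fed-only of 59 fed regions and none fasting-only of 2 fasting regions. Satb1, which organises chromatin in developing T cells, followed with 55 fed-only of 75 fed regions and no fasting-only region of 22. Dad1 had 50 fed-only of 66 fed regions and 2 fasting-only of 18. The gene 3110018I06Rik had 46 of 52 and 1 of 7. Its fed-only regions lay between positions 106926157 and 107734860 of chromosome 12, in the stretch that leads up to Bcl11b, a factor required for T cell commitment. Lpp, a large focal adhesion gene, had 67 of 158 and 29 of 123.

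Olfr1507 is an olfactory receptor gene, but its fed-only regions lay in a neighbouring locus. The gene and Dad1 border the T cell receptor alpha and delta locus on opposite sides. All 57 fed-only regions assigned to Olfr1507, and 44 of the 50 assigned to Dad1, lay inside the locus, on chromosome 14 from 52427928 to 54224206. This locus encodes receptor chains that are assembled by recombination in the thymus.

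The antigen receptor loci were examined after these values were seen. The T cell receptor alpha and delta locus held 116 regions in the fed and 16 in the fasting lung, and 102 of the 116, or 87.9%, were fed-only, beside 26.2% of all fed regions. The T cell receptor beta locus held 23 regions in the fed lung, 18 of them fed-only, and 4 in the fasting lung. The T cell receptor gamma locus held 4 and 3 regions. Among the loci of B cells, the immunoglobulin heavy chain locus held 68 and 23 regions, the kappa locus 34 and 22, and the lambda locus 19 and 11. In spleen the alpha and delta locus held 151 regions in the fed and 119 in the fasting state.

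The largest excesses of fasting-only regions were smaller. Magi1, a scaffold gene of cell junctions, had 38 fasting-only of 92 fasting regions and 15 fed-only of 76 fed regions. Pde7b, a cyclic AMP phosphodiesterase gene, had 33 of 65 and 11 of 42. Ptprg, a receptor tyrosine phosphatase gene, had 45 of 122 and 24 of 96. Nfib, a factor needed for lung maturation, had 38 of 109 and 17 of 87. Cdk14 had 28 of 89 and 7 of 69. A spleen peak overlapped between 1 of 45 (Ptprg) and 7 of 33 (Pde7b) of these fasting-only regions, beside 23.0% of all fasting-only regions.

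Promoters were compared gene by gene. Of 21938 protein-coding genes, 16470 had a promoter region in at least 1 state, and the median difference of promoter rank was -0.07 points. A promoter region was listed in the fed lung alone for 376 genes, 2.28% of those, and in the fasting lung alone for 260 genes, 1.58%. The rank was at least 10 points higher in fasting at 4.78% of the promoters and at least 10 points lower at 6.62%.

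Of the 5 strongest promoters listed in the fed lung alone, 4 were of lymphocyte genes. Dntt, the terminal transferase that adds bases during receptor recombination, had 115 tags (12.9 times background, rank 86.0) in the fed lung, at a summit 1797 bp inside the gene. Prm1, a sperm protamine gene, had a rank of 84.3, at a summit in an intron of the neighbouring transcript Gm46563. Cd3e, a signalling chain of the T cell receptor, had 87 tags (9.75 times background, rank 82.7) at a summit 4 bp from its start. Ptcra, the receptor alpha chain of immature T cells, had 84 tags (9.42 times background, rank 81.7) at a summit 13 bp from its start. Cd226, an activating receptor of T and NK cells, had a rank of 79.6. None of these 5 had a listed fasting peak.

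A spleen promoter peak was listed at 85.6% of the promoters found in the fed lung alone and at 79.2% of those found in the fasting lung alone. The share over all lung promoters was not taken, so neither value can be read as particular to these promoters. Spleen ranks were 95.4 and 94.7 for the Dntt region, 96.4 and 96.4 for Prm1, 75.6 and 65.9 for Cd3e, and 89.9 and 84.9 for Cd226. The Ptcra region ranked at 5.40 in the fed spleen and at 30.2 in the fasting spleen, against 81.7 in the fed lung.

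The promoters listed in the fasting lung alone were weaker. Crb1 and Zan both had a rank of 59.5 with 36 tags, 5.04 times background. Mov10l1 had a rank of 56.8, and Olfm4 and Serpinb9b had 56.1. In fed and fasting spleen the ranks of these regions were 79.1 and 80.5 for Crb1, 63.5 and 44.4 for Zan, 61.8 and 69.9 for Mov10l1, 0 and 30.2 for Olfm4, and 65.3 and 0 for Serpinb9b, so each had a spleen peak. Crb1 encodes a polarity protein and Olfm4 a secreted glycoprotein of neutrophils and epithelium. The highest rank among them was thus 59.5, against 86.0 among promoters listed in the fed lung alone.

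Marker genes of T and NK cells had lower promoter ranks in the fasting lung. The median difference over the list was -31.8 points. At least 10 points lower were 9 of 12 genes, and none was at least 10 points higher, beside 6.62% and 4.78% of all promoters. Cd3e went from 82.7 to 0, Cd8a from 68.9 to 0 and Cd4, like Cd8a a co-receptor of T cells, from 62.9 to 0. Gzma, a granzyme of killer cells, went from 57.4 to 0, while Ncr1, an NK cell receptor, went from 0 to 6.24. Themis, a signalling protein of thymic selection, went from 85.1 (89 tags) to 42.1 (28 tags), and Cd3g from 89.4 (136 tags) to 56.1 (34 tags). Lck and Tcf7 differed by less than 1 point, at ranks above 93 in both states. In tags over background 11 of the 12 genes were lower in fasting, while 66.3% of all promoters listed in both states were higher. The sum over the list was 143 in the fed and 86.5 in the fasting lung. Ncr1 was at 0 in the fed lung, and Cd3e, Cd4, Cd8a and Gzma were at 0 in the fasting lung. In spleen the median difference of the same list was 2.40 points, with 2 genes higher and none lower by 10 points.

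Genes of immature thymocytes were listed after the Dntt and Ptcra values were seen. Promoters of Dntt, Ptcra, Cd8b1, Rag1 and Rag2 had fed ranks of 86.0, 81.7, 79.3, 61.6 and 56.9, and no fasting peak was listed at any of them. Rag1 and Rag2 encode the recombinase of antigen receptor genes. The Bcl11b promoter went from 85.4 (105 tags) to 52.3 (32 tags) and the Arpp21 promoter from 74.8 to 13.8. Ccr9 was 5.44 points higher in fasting, and Cd1d1, Tox and Satb1 differed by less than 2 points. The list had a median difference of -45.0 points, with 7 of 12 genes lower by at least 10 points, beside 6.62% of all promoters. Its summed tags over background were 150 in the fed and 95.1 in the fasting lung. The thymic epithelium was listed in the same way. Its defining genes Foxn1 and Psmb11 had no promoter region in either lung state, no gene of this list differed by 10 points of rank, and its summed tags over background were 125 and 120. Of its 4 listed genes, 3 had fewer tags over background in fasting, with Prss16, a protease of the thymic cortex, going from 172 tags (19.3 times background) to 99 tags (13.9 times). The part of T cells or thymocytes in the fed-only regions was not tested. With 1 pooled library a state, lymphoid or thymic tissue taken along with the fed lungs cannot be told apart from a difference between the feeding states. This bears on the T cell, thymocyte and receptor locus values alike. It bears in the same way on the spleen overlap, the B cell values, the genes with an excess of fed-only regions and the motif shares.

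B cell markers were lower to a smaller extent. The median difference over the list was -5.61 points, and 4 of 10 genes were at least 10 points lower, beside 6.62% of all promoters. All 10 had fewer tags over background in fasting, with sums of 126 and 90.9, while 66.3% of all promoters listed in both states had more. The largest differences were those of Fcer2a, the low-affinity IgE receptor, from 79.6 (70 tags) to 42.1 (28 tags), and of Blk, a B cell kinase, from 69.7 to 39.8. Cr2, the complement receptor, went from 92.3 to 76.0. In spleen the B cell list had a median difference of 2.26 points and no gene past 10 points in either direction. The part of B cells in the lung differences was not tested.

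**Figure D3:**
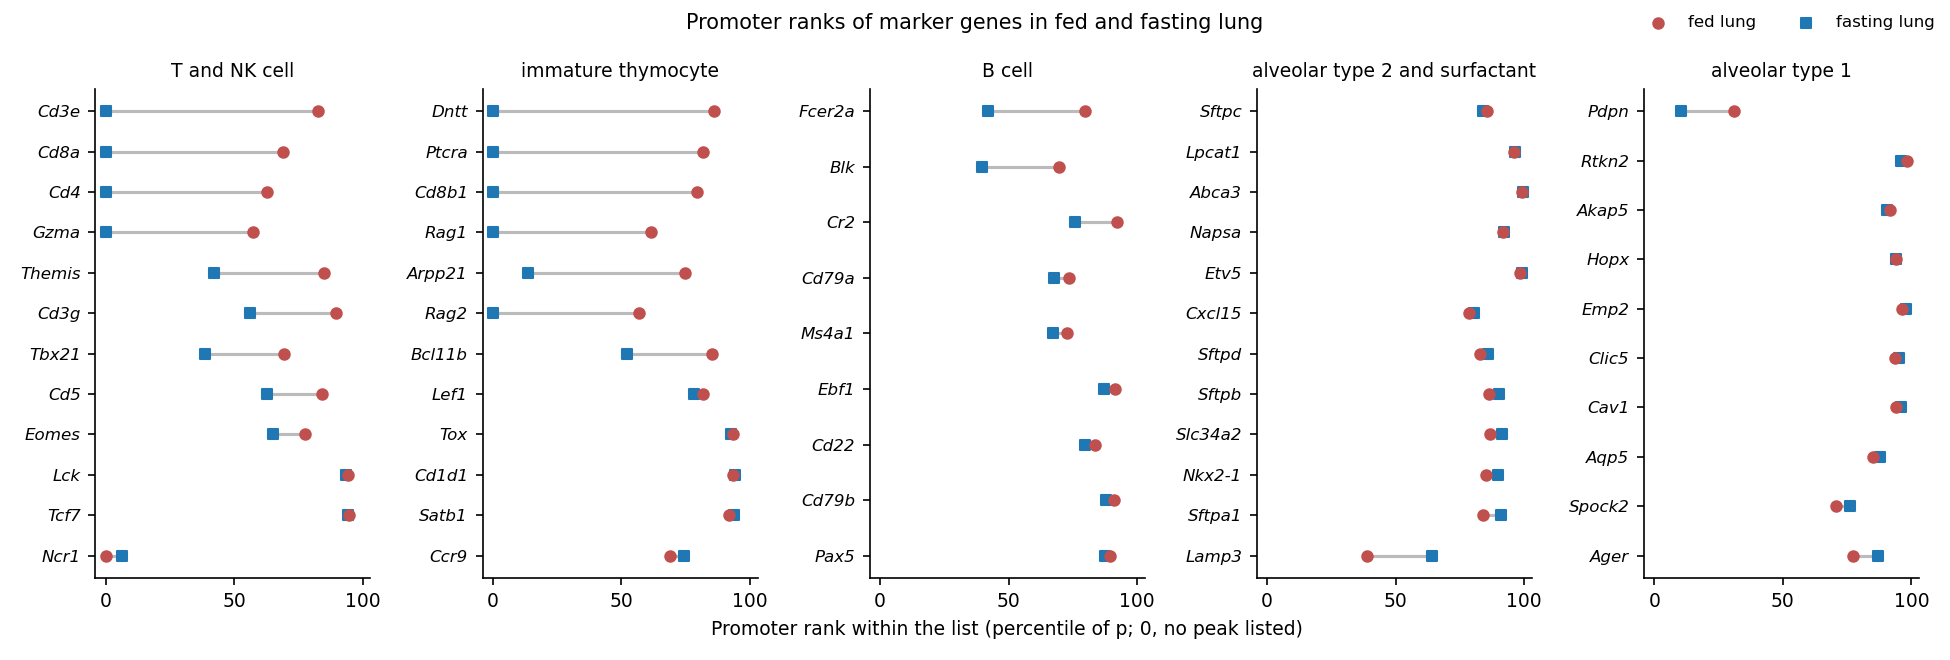
Promoter ranks (percentile of p within the list, 0 where no peak is listed) of marker genes in the fed (circles) and fasting (squares) lung, 1 library each, with a line joining the states of a gene and 1 gene of the B cell list not drawn. Cd3e, Cd8a, Cd4, Gzma and 5 genes of the immature thymocyte list are at 0 in the fasting lung, while most alveolar markers hardly move.

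Lung epithelial and endothelial markers had similar or slightly higher values in the fasting lung. The median difference of rank was 2.68 points for the alveolar type 2 list, 1.35 for type 1, 1.57 for airway cells and 1.83 for endothelium. Lamp3, a lamellar body protein of type 2 cells, went from 38.7 (32 tags) to 64.2 (40 tags). Scgb3a2 and Scgb1a1, the secretoglobins of club cells, went from 4.15 to 34.4 and from 49.7 to 63.2. Pdpn, a type 1 cell glycoprotein, went from 30.9 to 10.6 in rank, with 4.26 and 4.20 tags over background. No endothelial gene differed by 10 points. In the mesenchyme list, Pdgfrb, the PDGF receptor of pericytes, went from 85.2 to 68.6 and Fgf10, a growth factor of lung buds, from 48.8 to 35.1. In tags over background all 12 type 2 genes were higher in fasting, with sums of 308 and 397, as were 66.3% of all promoters listed in both states. Of the endothelial genes 10 of 12 were higher, while Pecam1, which leukocytes and platelets also carry, went from 140 to 72 tags.

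Regions beyond promoters were compared by the list gene they lay nearest to. Near T and NK cell genes 63.6% of 110 fed regions were fed-only and 6.25% of 48 fasting regions were fasting-only, beside 26.2% and 23.4% of all regions. The immature thymocyte list had 66.8% of 283 and 11.9% of 109, and the B cell list 37.8% of 148 and 9.26% of 108. At equal depth these pairs were 55.6% and 6.25%, 63.6% and 17.4%, and 32.5% of 126 and 15 of 107 regions, beside 22.3% and 26.7% of all regions at equal depth. Near type 2 genes 19.3% of fed regions were fed-only and 23.8% of fasting regions were fasting-only, and near endothelial genes the shares were 18.5% and 25.3%. The genes of these lymphocyte lists and the receptor loci held 519 of the 42008 fed-only regions. Without them, and without 43 fasting-only regions of the same kind, a spleen peak overlapped 47.9% of fed-only and 22.9% of fasting-only regions. The regions left out were 1.24% of the fed-only regions, too few to move that share by much. Regions near other genes of lymphocytes stayed in, and their part in the spleen overlap was not tested.

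**Figure D4:**
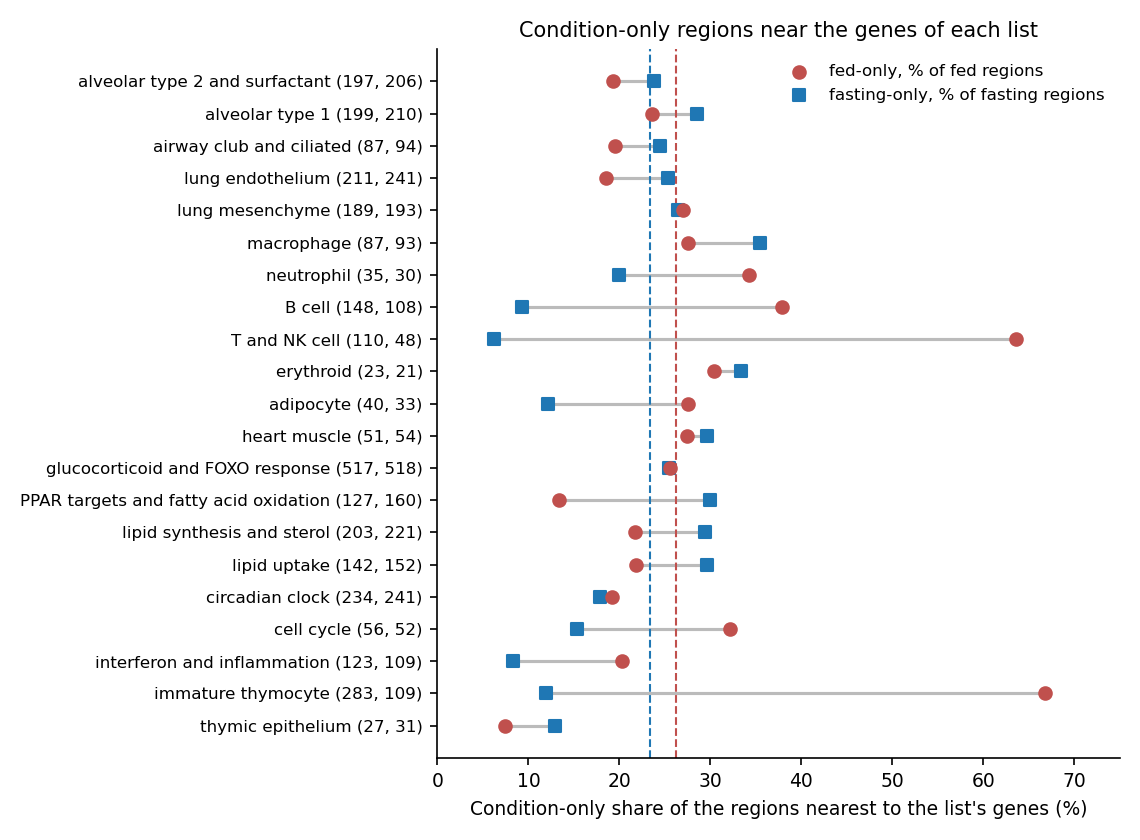
Fed-only share of the fed regions (circles) and fasting-only share of the fasting regions (squares) nearest to the genes of each list (%, horizontal axis), with the numbers of fed and fasting regions in brackets. Dashed lines mark the shares over all lung regions, 26.2% and 23.4%. The T and NK cell and the immature thymocyte lists stand furthest to the right for fed-only regions, at 63.6% and 66.8%.

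Genes that respond to fasting hormones were compared in tags over background, because their promoters had ranks near the top in both states. This measure was taken up after the values were seen. The 15834 promoters listed in both states had a median log2 ratio of fasting over fed of 0.09, and differences are given relative to it. A promoter counts as higher or lower when it differed from that median by at least 0.5 on the log2 scale, which 3.43% of the promoters did upward and 4.53% downward.

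Promoters of the glucocorticoid and FOXO response were higher at 7 of 18 genes and lower at none. Fkbp5, the chaperone that glucocorticoid receptor induces, went from 347 tags (38.9 times background) to 507 tags (71.0 times), a relative log2 difference of 0.78. Zbtb16, a zinc finger gene induced by glucocorticoid, went from 381 tags (42.7 times) to 555 tags (77.7 times), a difference of 0.77. Klf15, a regulator of amino acid use in fasting, went from 253 to 357 tags, a difference of 0.73. Tsc22d3, which encodes the glucocorticoid-induced leucine zipper, differed by 0.54. The metallothionein genes Mt1 and Mt2 differed by 0.52 and 0.50. Lcn2, an iron-binding secreted protein, differed by 0.62 and was the only gene of the list past 10 points of rank, from 61.7 to 75.1. Sgk1 and Foxo1 were slightly below the median, at -0.04 and -0.06. The median of the list was 0.29 above that of all promoters. By the same measure the alveolar type 2, type 1, airway and endothelium lists were 0.36, 0.33, 0.36 and 0.22 above it. A higher median was thus not particular to the glucocorticoid and FOXO list. The rank differences of this list had a median of 0.55 points, which was -1.17 points when regions were ranked by fold. Of the regions near the genes of this list, 132 of 517, or 25.5%, were fed-only and 132 of 518, or 25.5%, fasting-only. These were near the shares of all regions, 26.2% and 23.4%. At equal depth the pair was 20.3% and 27.6%, beside 22.3% and 26.7% of all regions.

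Genes of lipid use differed less. Of 16 PPAR targets and genes of fatty acid oxidation, Acot1, an acyl-CoA thioesterase, went from 144 to 219 tags, a relative log2 difference of 0.83, and Ucp3, a mitochondrial carrier, from 63 to 89 tags, a difference of 0.73. None was lower by the same limit, and Cpt1a, the entry enzyme of mitochondrial oxidation, differed by 0.10. Of the regions near these genes, 48 of 160 were fasting-only in the fasting set and 17 of 127, or 13.4%, fed-only in the fed set, beside 23.4% and 26.2% of all regions. In lipid uptake, Lpl, the lipoprotein lipase, differed by 0.54 and Vldlr, a lipoprotein receptor, by 0.56. The promoter of Fabp4, a fatty acid carrier of adipocytes and capillaries, was listed in the fed lung alone, at rank 46.6. In lipid synthesis no gene passed the limit, and Elovl6, a fatty acid elongase, went from rank 89.6 to 79.1. Of 18 clock genes only Bhlhe41 passed it, at 0.58, and Per1, Per2 and Nr1d1 differed by less than 0.1. Cell cycle genes had no gene past the limit, with Aurkb, a mitotic kinase, going from rank 82.1 to 69.4.

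Inflammatory and adipocyte genes held the remaining differences. Of 16 interferon and inflammation genes, 4 had a rank at least 10 points lower and none was at least 10 points higher, beside 6.62% and 4.78% of all promoters. By the log2 limit 2 of the 16, Oas2 and Tnf, were lower and none was higher, beside 4.53% and 3.43% of the promoters listed in both states. Oas2, an antiviral enzyme, went from 65.9 (48 tags) to 13.8 (22 tags) and Tnf from 82.3 (122 tags) to 67.9 (59 tags). Adipoq, the adiponectin gene of adipocytes, went from 87.5 (104 tags) to 66.1 (41 tags). Of the whole adipocyte list, 3 of 10 genes had fewer tags over background in fasting, namely Adipoq, Plin1 and Fabp4, and 4 had more. The sum was 136 in the fed and 143 in the fasting lung. Its largest parts came from Pnpla2 (53.4 and 59.0 times background) and Lipe (40.7 and 48.2 times). Lep, Retn and Ucp1 were at 0 in both, and Cidec, a lipid droplet protein, was listed in fasting alone, at rank 31.8. The part of adipocytes in these differences was not tested.

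Short motifs were counted in the 200 bp around the summit of each region, on both strands, in 19 motifs of blood, lung and fasting factors. A match is a run of letters and not a site shown to be bound, and motifs may overlap in a window. The PU.1 type of ETS motif (GAGGAAGT) was in 4.30% of fed-only and 1.92% of fasting-only regions, beside 3.42% of all lung regions. The RUNX motif (TGTGGTTT) was in 3.02% and 1.54%, beside 2.13% of all. Both families act in blood cells. The E2A motif (CAGCTGC), of E proteins of lymphocytes, was in 8.66% and 6.69%, beside 8.23%, and the IRF motif (GAAANNGAA) in 6.97% and 5.33%, beside 6.05%. CTCF (AGGGGGC) was in 3.82% and 3.03%, beside 5.91%, NF-kB (GGGNNTTCC) in 3.09% and 2.70%, beside 3.40%, and TCF7 and LEF1 (CTTTGAAG) in 1.48% and 1.20%, beside 1.23%. For these 7 the exact intervals of the classes lay apart, with fed-only regions higher.

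In 6 motifs the fasting-only regions were higher with intervals apart. The TEAD motif (GGAATGT), of factors that act in alveolar type 1 cells, was in 4.31% of fasting-only and 2.83% of fed-only regions, beside 3.92% of all. The NKX2-1 motif (CACTTGA), of the master factor of lung epithelium, was in 3.97% and 2.90%, beside 3.44%. C/EBP (TTNNGCAA) was in 9.69% and 7.94%, beside 9.19%, AP-1 (TGANTCA) in 8.69% and 7.23%, beside 8.20%, and FOX (TGTTTAC) in 4.07% and 3.39%, beside 4.32%. The core of the glucocorticoid receptor palindrome (ACANNNTGT) was in 8.19% and 7.18%, beside 6.95%. For the remaining 6 motifs the intervals of the classes overlapped. These were STAT (TTCNNNGAA), PPAR (AGGTCANAG), EBF (CCCNNGGGA), MEF2 (CTAAAAATA), the motif of the GATA factors (AGATAAG) and the clock E-box (CACGTG). Mean GC content was 49.3% in fed-only and 49.5% in fasting-only windows.

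Regions without a spleen peak showed smaller motif differences for the blood factors. The ratio of the fed-only to the fasting-only share went from 2.24 to 1.38 for the ETS motif and from 1.96 to 1.45 for RUNX when regions with a spleen peak were left out. For TEAD it went from 0.657 to 0.771 and for NKX2-1 from 0.730 to 0.753. In the printed windows, the Xpnpep1 region held an AP-1, an E2A and a glucocorticoid receptor match, Msra an E2A match, and Ptcra an E2A and an EBF match. The Cd3e window held none of the 19 motifs.

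**Figure D5:**
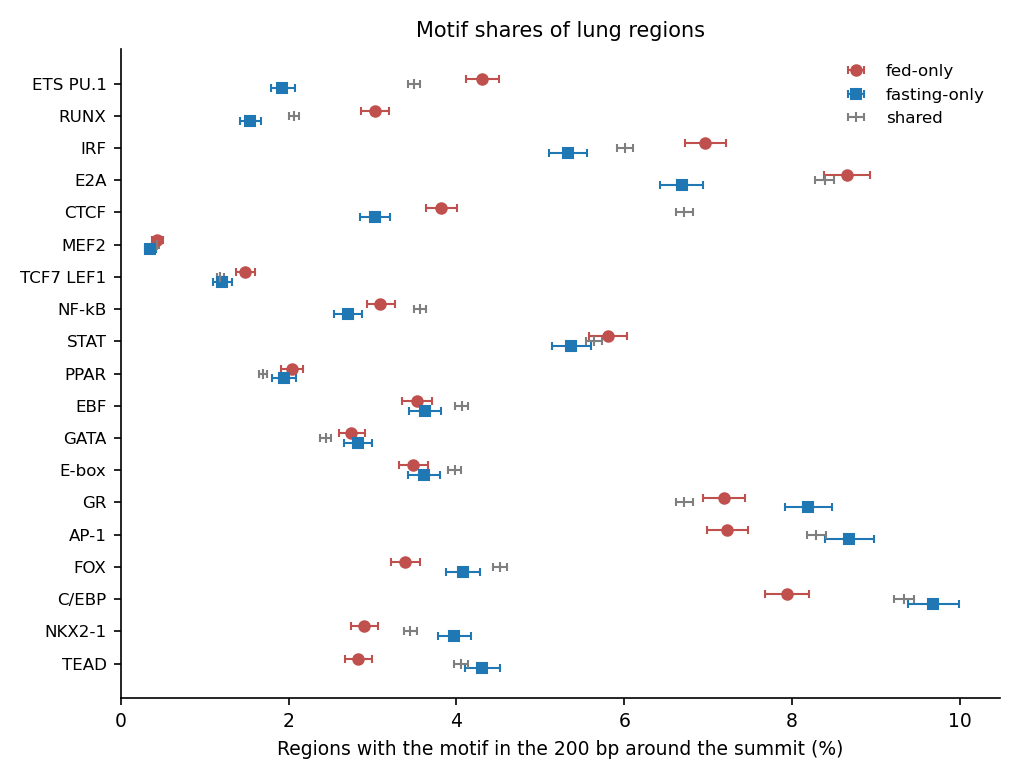
Share of fed-only (circles), fasting-only (squares) and shared (grey ticks) lung regions with each motif in the 200 bp around the summit (%, horizontal axis), with 95% exact binomial intervals, ordered by the ratio of the fed-only to the fasting-only share. ETS and RUNX lie highest on the fed-only side, at 4.30% and 3.02%, and TEAD and NKX2-1 on the fasting-only side, at 4.31% and 3.97%.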

How the data were processed

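Nuclei from frozen lung pooled within a group were tagged with Tn5 and sequenced, by the study's methods. By the study's methods the authors removed unmapped and duplicate reads, and the names of the deposited lists also mark the removal of mitochondrial reads and a Tn5 step. The submitters' processing notes name GRCm38, Bowtie2 and MACS2, and their versions are not given in the sources used here. By the same names, peaks were called by the authors at a permissive p-value and each list was kept to a fixed length and filtered. Peaks were called per library and no replicates exist. The deposited fold enrichment is a ratio of summit tags plus 1 to expected tags plus 1 within a library. The authors' significance values, deposited as −log10 p and −log10 q, come from a Poisson test in which each library is its own background. None of these is scaled between libraries.

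From the deposited lists, rows that share their coordinates were joined to 1 region with the smallest p, and the set held regions with a q-value under 0.01. Summit and background tags were solved from the fold and p, which gave whole tag numbers for 99.9% of the rows of each lung list. This stands in for the depth, which is not stated in the files. Genes and starts were those of GENCODE vM21. A region was a promoter region when its summit lay at most 3000 bp from a start, and for each state the highest-ranked such region was used. Sequences were read from the RefSeq copy of GRCm38, in which every chromosome was longer than the last peak on it, and starts are counted from 1. Binomial intervals are exact (Clopper-Pearson, 95%). No test was made, because each state had 1 library.

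The members, gene lists and motifs were chosen with earlier results of these data known. The text names Sftpc and Ager; in each gene list up to 2 rises and 2 falls of promoter rank of at least 10 points and genes listed in 1 state; the 4 strongest regions of each class with and without a spleen peak; the 5 largest rises and falls of rank; the 5 genes with the largest excess each way; and the 5 strongest promoters listed in 1 state, each way. Other genes were named after their values were seen, as were the receptor loci, the immature thymocyte and thymic epithelium lists and the comparison of tags over background at promoters. Counts and sums over the B cell list include 1 gene whose own values are not reported here. Alternatives changed the q-value, the number of regions, the overlap, the depth (tags thinned binomially to the shallower library, keeping p under 1e-05), the chromosomes, the promoter window, the rank measure, the size of the shift and the motif window. Python 3.11.15, numpy 2.4.6, pandas 2.3.3, scipy 1.17.1 and matplotlib 3.10.9 were used with random seed 1, and the interval, tag and overlap functions were tested on simulated data.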

Additional observations from a re-analysis of the deposited data

Results flagged for a closer look

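The lung and the spleen differed in the direction of 5 measures between the states, each from 1 library per tissue and state, and none of these differences was tested. The number of fasting-only over fed-only regions, as a log2 ratio, was -0.19 in lung and 0.26 in spleen, a difference of -0.45, but the lung ratio was 0.38 at equal depth, the direction of spleen. Thinning to equal depth could only remove regions, mostly fed ones, and so works by itself toward that direction. The promoter share of fasting-only minus that of fed-only regions was -1.24 points in lung and 1.26 points in spleen, a difference of -2.50 points, and the order in lung turned among the 50000 strongest regions and with an overlap of 50% of both lengths. The median promoter rank difference (fasting minus fed) of the T and NK cell list was -31.8 points in lung and 2.40 points in spleen, a difference of -34.2 points. That of the B cell list was -5.61 points in lung and 2.26 points in spleen, a difference of -7.87 points. That of the lung endothelium list was 1.83 points in lung and -9.89 points in spleen, a difference of 11.7 points. The spleen libraries had 3.20 and 3.35 background tags, against 8.92 and 7.14 in lung.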

How the results depend on the processing

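No paired analysis was possible because each state had 1 library, and no replicate could be left out. Of the numbers of regions, the q-value under 1e-06 gave 7698 fasting-only and 14515 fed-only regions in sets of 100553 fasting and 111344 fed regions, the 50000 strongest regions of each list gave 115 and 719, and an overlap of 50% of both lengths gave 60030 and 63019. Without regions overlapped by a spleen peak, 21777 fed-only regions were left. The order of the numbers turned at equal depth, where regions could only be removed, and without spleen-overlapped regions. The spleen-overlapped share of fasting-only and fed-only regions was 22.4% and 64.4% with q under 1e-06, 21.7% and 90.3% among the 50000 strongest, 18.9% and 33.0% with an overlap of 50%, and 24.6% and 51.9% at equal depth, so fed-only regions had the higher share under each of these. The promoter share of fasting-only and fed-only regions was 27.3% and 27.4% with q under 1e-06, 27.0% and 26.3% among the 50000 strongest, 29.1% and 28.5% with an overlap of 50%, 13.3% and 14.3% with a 1000 bp window, and 19.0% and 19.3% with protein-coding starts only. Its order between the classes thus turned under the number of regions and the overlap, and the cause was not tested. Rank differences past the limit numbered 4114 up and 3426 down with q under 1e-06, 10370 and 10160 when ranked by fold, and 5349 and 6071 with a limit of 30 points, so their order turned under the first 2 of these. Promoters listed in 1 state with q under 1e-06 numbered 68 in fasting and 170 in fed. Of 42 values of list medians under other settings, 33 kept their direction within 5 points, 3 moved further and 6 turned in direction. Ranked by fold, the neutrophil list turned to 0.88, the cell cycle list to 0.17 and the glucocorticoid and FOXO list to -1.17 points, and with a 1000 bp window the adipocyte list turned to 1.77, the erythroid list to 0.074 and the lipid uptake list to 0.22 points. The T and NK cell median was -23.8 points when ranked by fold, and that of immature thymocytes -34.7 points by fold and -33.1 points with a 1000 bp window. Of 38 motif differences, 15 stayed within the intervals of the reported value, 20 moved and 3 turned in direction, STAT to -0.11 points with q under 1e-06, and GATA to 0.054 and the E-box to 0.0048 points within 50 bp of the summit. The 13 motifs whose intervals lay apart kept their direction under both settings, at 0.766 to 2.63 times the reported difference with q under 1e-06 (ETS 4.26 points) and 0.363 to 1.07 times within 50 bp (RUNX 0.64 and IRF 0.62 points). Depth limits what can be said of single weak regions, since the lowest summits of the lists had 21 and 24 tags.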

Other observations

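The 5 genes that followed by their excess of fed-only regions, among 903 with an excess of 5 or more, were looked at after the values were seen. Ptprc, the pan-leukocyte phosphatase CD45, had 44 fed-only of 80 fed regions and 8 fasting-only of 45 fasting regions. Prex1, an exchange factor of leukocytes, had 45 of 86 and 9 of 52, Ets1 had 45 of 118 and 11 of 85, Sox4 had 46 of 95 and 13 of 70, and Runx1 had 48 of 104 and 16 of 77. Those that followed on the fasting side were Zfp608, with 43 fasting-only of 151 fasting regions and 23 fed-only of 129 fed regions, Fars2 with 29 of 70 and 9 of 50, Kalrn with 35 of 93 and 16 of 79, Arhgef28 with 26 of 70 and 8 of 50, and Sox9, a factor of airway cartilage and distal epithelium, with 23 of 54 and 6 of 38.

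Myeloid and erythroid markers gave smaller or mixed values. In the macrophage list, Siglec1 and Mrc1 were listed in the fed lung alone, at ranks 21.4 and 6.24, Chil3 in the fasting lung alone, at 6.24, and Cd68 went from 45.1 to 29.3. In the neutrophil list, Csf3r, the receptor of granulocyte growth factor, was listed in the fed lung alone, at rank 60.1, Retnlg in the fasting lung alone, at 13.8, and Mpo went from 48.8 to 26.0. S100a8 and S100a9 had no promoter region in either state. Of the erythroid list, Hbb-bt and Hba-a1 were listed in the fed lung alone, at 44.2 and 23.7, and Epb42 in the fasting lung alone, at 30.9. Of the heart muscle list, Pln was listed in the fed lung alone, at 6.24, and Myl7 in the fasting lung alone, at 44.2, while Myh6, Nppa and Actc1 were at 0 in both.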
